A study of Mus musculus with 6 samples.

Results

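The comparison set the visual cortex of mice homozygous for a mutated Mmp9 untranslated region (UTRmut, genotype UTRmut/UTRmut) against that of wild-type mice (WT, genotype WT/WT) of the same line. It rested on 4 of the 6 libraries of the study, 2 per genotype, chosen by their genotype labels and not by any measured value. All mice were of the strain B6.CBA/Tar, the mutant allele is named Mmp9em1Iimcb, and tissue was taken at postnatal day 28. Replicate 1 of each genotype was a female and replicate 2 a male, so the replicate number also stands for sex, and each genotype of each sex was 1 library. The 2 libraries of heterozygotes (het) were outside the contrast and served to estimate the spread between libraries. The labels do not say which untranslated region was changed, whether a library held 1 animal, or how many founders the line has, and p-values therefore measure only the spread between these libraries, part of which may be technical.

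Mmp9 encodes matrix metalloproteinase 9, a secreted enzyme that cuts extracellular matrix and cell-surface proteins around synapses. Its activity is held back by the tissue inhibitors of metalloproteinases, encoded by Timp1 to Timp4. In neurons its messenger RNA can be carried into dendrites and translated near synapses, and untranslated regions are where such control of an RNA is usually encoded. The visual cortex of a young mouse is a common setting for work on MMP-9, because circuits there are still being reshaped by vision.

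The 4 libraries held 10061225 to 11966579 counts, with 23353 to 23845 genes detected by 1 count or more. Slc17a7, the vesicular glutamate transporter of cortical excitatory neurons, had 9115 to 11638 counts in these libraries. The 2 WT libraries stood apart from each other. The WT male had 268 counts of Xist, the RNA of the silenced X chromosome, where the het and UTRmut males had 15 and 5 and the 3 females had at least 6164. It also had 487 counts of Ttr, the main product of the choroid plexus, where the other 5 libraries had 2 to 74. The WT female had the lowest level of the 4 libraries for activity-regulated, ribosomal protein and respiratory chain genes, as given with those groups. With each WT library left out in turn the number of genes that passed the test went from 4 to 184 (without the WT female, 0.336% of genes higher and 0.767% lower) or 389 (without the WT male, 1.51% and 0.811%).

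Across 16119 genes tested, 4 rose in UTRmut and 0 fell (edgeR quasi-likelihood test with the replicate number as a block, Benjamini-Hochberg adjusted p under 0.05). The 4 were Catspere1 and Catspere2, neighbours of the CatSper sperm calcium channel family, and 2 ribosomal RNA genes, CT010467.1 and mt-Rnr1. These calls are 0.0248% of the genes tested for higher and 0% for lower. Without adjustment, 236 genes (1.46%) were higher and 378 (2.35%) lower at a p under 0.05. Both UTRmut libraries were above both WT libraries for 2262 genes (14%) and below both for 2356 (14.6%). In a fit of the 4 libraries alone, with the block and 1 residual degree of freedom, 0 genes passed and 269 had an unadjusted p under 0.05, while DESeq2 on all 6 libraries called the same 4 genes and also Fos and Egr2.

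Catspere1 was counted in every library with a mutant allele and in neither WT library. The gene lies on chromosome 1 of GRCm38, at chr1:177808550-177962233 on the plus strand, and is an unprocessed pseudogene in GENCODE but protein coding in RefSeq. It had 0 counts in both WT libraries, 52 in the UTRmut female and 74 in the UTRmut male. A count of 0 in a WT library allows up to 3 counts, and against that floor in each WT library Catspere1 was at least 20.6-fold higher in UTRmut (adjusted p = 0.00298 by edgeR and Benjamini-Hochberg). The het libraries had 41 and 85 counts, so every library with a mutant allele was above both WT libraries. Over 15 alternative analyses the adjusted p of Catspere1 was 3.57e-25 to 0.115, and it passed in 14 of them.

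Catspere2 lies next to it at chr1:177983423-178172704, also on the plus strand, and encodes the epsilon subunit of CatSper, which in sperm opens a calcium current needed for motility. It had 75 and 90 counts in WT against 202 and 265 in UTRmut, or 7.50 ± 0.382 CPM against 20.96 ± 2.97 CPM (mean ± SD over 2 libraries, counts scaled to library size with TMM factors). The log2 fold was 1.48 (SE 0.17; adjusted p = 0.0112 by edgeR and Benjamini-Hochberg), with 1.36 between the females and 1.55 between the males. The het libraries had 158 and 272 counts, or 16.4 and 25.4 CPM, both above the WT libraries. The het female lay below both UTRmut libraries, at 18.9 and 23.1 CPM, and the het male above both. Catspere2 passed in 12 of 15 alternatives, with adjusted p up to 0.173 (edgeR, Benjamini-Hochberg).

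Reads of the 2 genes may not be told apart everywhere, because their transcripts are near copies. Over 2344 aligned bases, transcripts Catspere1-201 and Catspere2-202 of GENCODE were 91.94% identical, and 25.1% of the 2900 stretches of 50 bases in Catspere1-201 also occurred in a Catspere2 transcript. One stretch of 30 bases is shown for each because it has the alignment's average share of mismatches. It covers bases 212 to 241 of Catspere1-201 and bases 426 to 455 of Catspere2-202, and capitals mark the 2 mismatches.
Catspere1-201: actgcaaaagggctggaattcacacAataA
Catspere2-202: actgcaaaagggctggaattcacacGataG
Beside the 75 and 90 counts of Catspere2, the WT libraries held 0 counts of Catspere1.

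The surrounding genes were looked at after the 2 calls were known, and 0 of them passed. Gm8010, an unprocessed pseudogene inside the span of Catspere2 (chr1:178143301-178144272), had 4 and 3 counts in WT, 14 and 18 in UTRmut and 9 and 18 in het. Its values differed in the same direction as those of both Catspere genes, with all 4 libraries with a mutant allele above both WT libraries, but at these few counts it missed the threshold (log2 fold 2.13, SE 0.58; adjusted p = 0.999 by edgeR and Benjamini-Hochberg). It lies on the same strand as Catspere2, so reads of the overlap could be counted for either. Of the protein-coding neighbours with over 300 counts in each library, the log2 folds were close to 0: Adss at -0.18 (SE 0.10), Desi2 at -0.01 (SE 0.11), Zbtb18 at -0.05 (SE 0.07) and Hnrnpu at 0.08 (SE 0.07). Of the other channel genes, Catsper2 had 4.24 and 4.49 CPM in WT and 3.18 and 3.22 CPM in UTRmut, and Catsperz had 1.54 and 1.73 against 0.934 and 1.13. Neither passed, and Catsper1, Catsper4, Catsperb and Catsperg2 had 0 counts in all 4 libraries. Of 11 genes of the channel, 4 were tested, and the 2 that passed are the neighbours on chromosome 1.

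**Figure D1:**
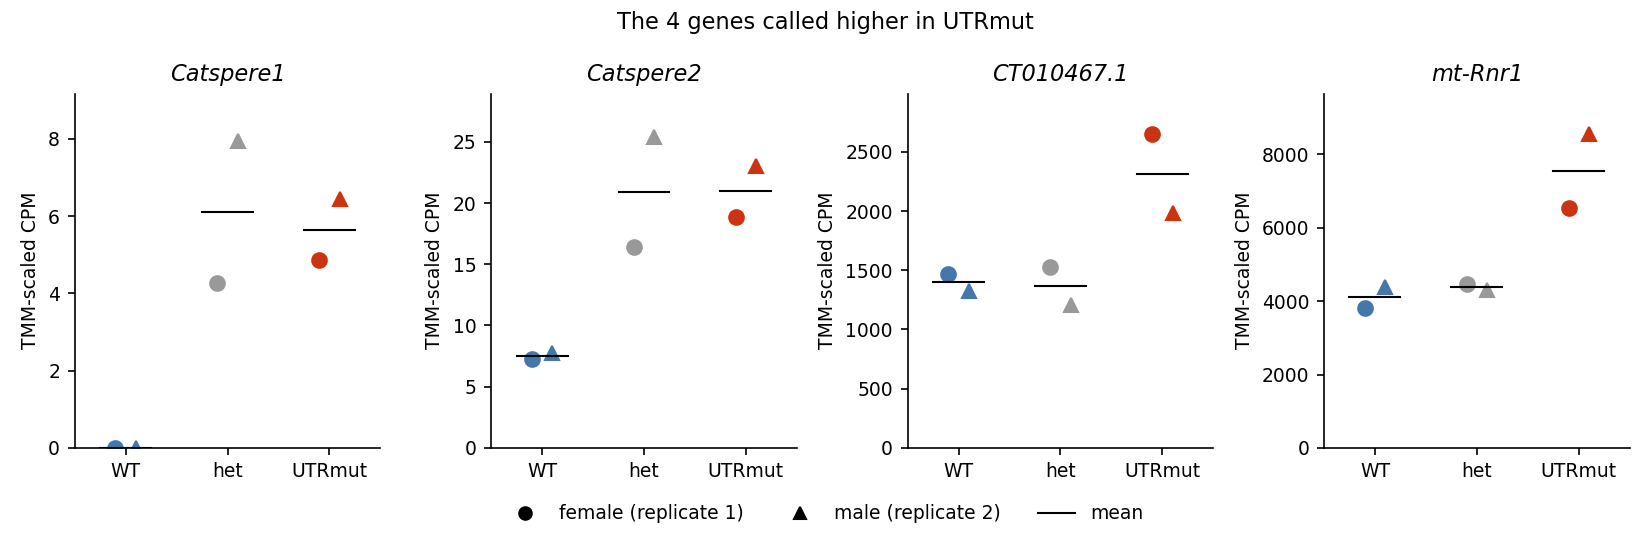
Level of the 4 genes that passed the test in each library, as TMM-scaled CPM on a linear axis from 0, with circles for females, triangles for males and a bar at the mean of each genotype. Catspere1 is at 0 in both WT libraries, both het libraries lie above both WT libraries for the Catspere genes, and they lie below both UTRmut libraries for CT010467.1 and mt-Rnr1.

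The other 2 genes that passed encode ribosomal RNA. CT010467.1 is annotated as rRNA at chr17:39846353-39848827 on the minus strand, over the RefSeq gene Rn18s-rs5, a copy of the 18S RNA of the small ribosomal subunit. It had 15235 and 15366 counts in WT against 28367 and 22757 in UTRmut. Its log2 fold was 0.71 (SE 0.08; adjusted p = 0.00801 by edgeR and Benjamini-Hochberg). The het libraries had 14680 and 12920 counts, at the level of WT. It passed in 9 of 14 alternatives, with adjusted p from 2.15e-17 to 0.9996 (edgeR or DESeq2, Benjamini-Hochberg). Genes of nuclear ribosomal RNA are near-identical repeats, so the counts of any one copy are uncertain.

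The mitochondrial 12S ribosomal RNA, mt-Rnr1, lies on the mitochondrial chromosome from 70 to 1024. It had 39603 and 50756 counts in WT against 69942 and 98216 in UTRmut, and the 2 genotypes did not overlap. The log2 fold was 0.87 (SE 0.09; adjusted p = 0.0222 by edgeR and Benjamini-Hochberg), and it passed in 11 of 14 alternatives, with adjusted p up to 0.727. The 16S RNA of the mitochondrial large subunit, mt-Rnr2, had 458804 and 557546 counts in WT against 618380 and 941698 in UTRmut, and did not pass (log2 fold 0.59, SE 0.18). Together the mitochondrial ribosomal RNAs took 4.95% and 5.23% of all counts in WT and 6.31% and 8.69% in UTRmut. Of the messenger RNAs of the same genome 6 of 10 tested were positive, with a median log2 fold of 0.03, and 0 passed. Among these, mt-Co1 had 5944 and 6611 CPM in WT against 6654 and 6687 in UTRmut. Total RNA kits remove ribosomal RNA before sequencing to an extent that can differ from library to library, and the part of that step in these 2 calls was not tested. With mitochondrial and ribosomal RNA genes left out of the fit, Catspere1 and Catspere2 were the 2 genes that passed.

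Mmp9 itself was scarce. The gene lies at chr2:164940780-164955850 on the plus strand and had 4 and 9 counts in WT, 8 and 16 in UTRmut and 9 and 9 in het, so the genotypes overlapped. The log2 fold was 0.86 (SE 0.55; adjusted p = 0.999 by edgeR and Benjamini-Hochberg), and a difference of that size was not detectable at this depth. RNA abundance does not report translation, which these libraries did not measure.

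Of the inhibitors and other members of the protease system that were tested, 0 passed. Timp2, the most counted inhibitor, had 166.9 and 160.5 CPM in WT and 160.4 and 166.3 CPM in UTRmut, a log2 difference of 0.00 (SE 0.09). Timp3 and Timp4 had log2 folds of 0.10 (SE 0.20) and 0.17 (SE 0.16), and Timp1 had 4 and 9 counts in WT against 8 and 7 in UTRmut. Of 24 metalloproteases listed, 14 were tested and 0 passed, 5 with positive and 9 with negative folds, from -0.70 to 0.86. The other members with the smallest p were Adam17, a sheddase (log2 fold -0.18, SE 0.13), Adam9 (0.12, SE 0.09) and Mmp14, a membrane-bound activator of other metalloproteinases (0.25, SE 0.22). Of the inhibitors and the plasminogen system, 10 of 16 were tested and 0 passed. Plau, the urokinase, had 3.47 and 4.40 CPM in WT and 5.14 and 4.96 in UTRmut, so both UTRmut libraries were above both WT libraries.

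Among 23 reported substrates of MMP-9, all tested, 9 were positive and 14 negative, with a median log2 fold of -0.06, and 0 passed. Tnc, the matrix protein tenascin C, had 9.45 and 13.3 CPM in WT and 8.69 and 7.40 in UTRmut (log2 fold -0.50, SE 0.21). Tnr, the tenascin of perineuronal nets, had 293 and 282.5 CPM in WT against 271.5 and 238.5 in UTRmut (log2 fold -0.18, SE 0.08). Acan, the aggrecan core protein of the nets around fast-spiking interneurons, had 3.95 CPM in the WT female and 7.69 to 8.41 in the other 3 libraries. Its log2 difference of 1.05 between the females and 0.10 between the males stood behind a fold of 0.53 (SE 0.27) that did not pass. The perineuronal net list as a whole had 10 of 19 genes positive and a median of 0.02.

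The 32 tested genes within 1 Mb of Mmp9, with Mmp9 itself counted, lie on the same stretch of chromosome as the mutation. They were examined after the other results were known. Of these, 16 were positive and 16 negative, the median log2 fold was 0.00, and 0 passed. Both UTRmut libraries were above both WT libraries for 5 of the 32 and below both for 5, near the shares over all genes (14% and 14.6%). The 2 of smallest p are adjacent to each other. Dbndd2, which encodes a dysbindin-domain protein (chr2:164486106-164493319), had 417 and 402 counts in WT, 557 and 662 in UTRmut and 485 and 572 in het. Its log2 fold was 0.55 (SE 0.12; adjusted p = 0.5996 by edgeR and Benjamini-Hochberg). Pigt, a subunit of the enzyme that attaches lipid anchors to proteins (chr2:164497520-164508301), had 442 and 527 counts in WT, 367 and 376 in UTRmut and 388 and 392 in het, for a log2 fold of -0.40 (SE 0.11). For Dbndd2 the 4 libraries with a mutant allele were above both WT libraries, and for Pigt they were below both. Dbndd2 is also among the genes whose naming required UTRmut libraries that do not overlap WT.

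Immediate-early genes, which neurons transcribe within minutes of synaptic activity, had nearly all of their values on 1 side. Of 33 tested, 32 had a positive fold, with a median log2 fold of 0.39 against -0.01 over all genes, of which 48.2% were positive. None of the 33 passed the test across all genes. Both UTRmut libraries were above both WT libraries for 15 of them and below for 0 (14% and 14.6% of all genes), and 10 were higher at an unadjusted p under 0.05 (1.46% of all genes). The median fold was 0.57 between the females and 0.13 between the males. Relative to the mean of the 4 libraries the list stood at -0.43 in the WT female and 0.06 in the WT male. It stood at 0.14 in the UTRmut female and 0.24 in the UTRmut male, so most of the distance was that of the WT female. The het female and male stood at 0.08 and 0.05, near the WT male. Without the WT female, 25 of 33 were positive with a median of 0.17, and 5 were called higher (0.336% of all genes in that fit). Without the WT male, 29 of 33 were positive with a median of 0.57, and 20 were called higher and 1 lower (1.51% and 0.811% of all genes in that fit).

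Fos, whose protein forms the AP-1 transcription factor with Jun proteins, had 100.01 and 100.8 CPM in WT, 140.8 and 190.4 in UTRmut and 130.2 and 159.2 in het. All 4 libraries with a mutant allele were above both WT libraries, yet the log2 fold, 0.71 (SE 0.11), missed the threshold (adjusted p = 0.0820 by edgeR and Benjamini-Hochberg, and 1.001e-13 to 0.9988 over 15 alternatives, passing in 5). Egr2, a zinc finger factor of the same early wave, had 37.9 and 58.6 CPM in WT and 70.4 and 97.9 in UTRmut, with 69.4 and 74.9 in het (log2 fold 0.81, SE 0.12; adjusted p = 0.105 by edgeR and Benjamini-Hochberg). DESeq2 called both, at Benjamini-Hochberg adjusted p = 0.00442 for Fos and 0.0102 for Egr2. The orphan nuclear receptor Nr4a2 had 20.1 and 33.4 CPM in WT against 35.8 and 41.9 in UTRmut (0.56, SE 0.13). The neuronal factor Npas4 had 29.2 and 39.5 CPM in WT against 43.5 and 48.3 in UTRmut (0.43, SE 0.12). In het, Nr4a2 had 31.7 and 42.6 CPM and Npas4 33.1 and 46.0, so the het female lay between the WT libraries for both genes. For both, the WT male lay closer to the UTRmut libraries than to the WT female. Arc, which acts at synapses, had 478.4 CPM in the WT female and 976.1 to 1105 in the other 3 libraries, and Btg2 had its highest level, 62.3 CPM, in the WT female.

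The promoters of these genes are shown because many of them answer to the cAMP response element, the binding site of CREB. In RefSeq promoter sequences (GRCm38.p6, 250 bases before to 50 after the start), 27 of the 35 listed genes were found. A gene was counted when any of its promoters held a match. The half-site TGACG, on either strand and within or outside a full site, occurred in 19 of the 27 (70.4%). It occurred in 34.9% of the tested genes found and in 23.0% of all genes with a promoter sequence. It was chosen for display from 5 motifs after the matches were seen. The full site TGACGTCA occurred in 3 of 27 (11.1%, 3.57% of tested genes and 2.03% of all genes with a promoter sequence). The AP-1 site TGAGTCA occurred in 1 of 27 (3.70%, 4.35% and 5.95%). The string ATATTAGG, a form of the core of the serum response element, and a longer form of it occurred in 0 of 27 (0.301% and 0.403% for the core). Only these exact letters were searched in the stretch given. Other forms of that element or sites farther away could not be found, so its absence cannot be read from this. For the 4 immediate-early genes of smallest p a stretch of 30 bases is given 5′ to 3′ on the gene's strand. It surrounds the half-site nearest the start, and only that half-site or its reverse complement is in capitals. Other matches within the stretches of Nr4a2 and Npas4 are left in lower case. A match describes letters and is not a measured site.
Fos, chr12:85473812-85473841, plus strand: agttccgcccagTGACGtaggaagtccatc
Egr2, chr10:67537802-67537831, plus strand: tatgggcagcgaCGTCAcgggtattgaaga
Nr4a2, chr2:57124097-57124126, minus strand: tgacggggccgcTGACGcgcttggccgcgg
Npas4, chr19:4990123-4990152, minus strand: gacgtcacgggaTGACGtcggaagtctggg

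Late activity-regulated genes, whose products act at synapses hours after the first wave, differed mainly between the WT female and the other libraries. Of 24 tested, 21 were positive, with a median of 0.29, and 0 passed. Between the females the median was 0.59 and between the males 0.03. Bdnf, a growth factor of synapses, had 39.6 CPM in the WT female and 75.0 to 81.8 in the other 3 libraries, and Nptx2, a pentraxin that clusters glutamate receptors, had 53.2 against 90.7 to 108.9. Both UTRmut libraries were above both WT libraries for 8 of the 24 and below for 1 (14% and 14.6% of all genes). Without the WT female, 13 of 24 were positive, the median was 0.01 and 0 passed. Without the WT male, 22 of 24 were positive, the median was 0.55 and 14 were called higher (1.51% of all genes in that fit). The values of Plk2, a kinase of synaptic scaling, were 331.5 and 347.4 CPM in WT and 361.9 and 437.1 in UTRmut (log2 fold 0.23, SE 0.08), which did not pass.

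**Figure D2:**
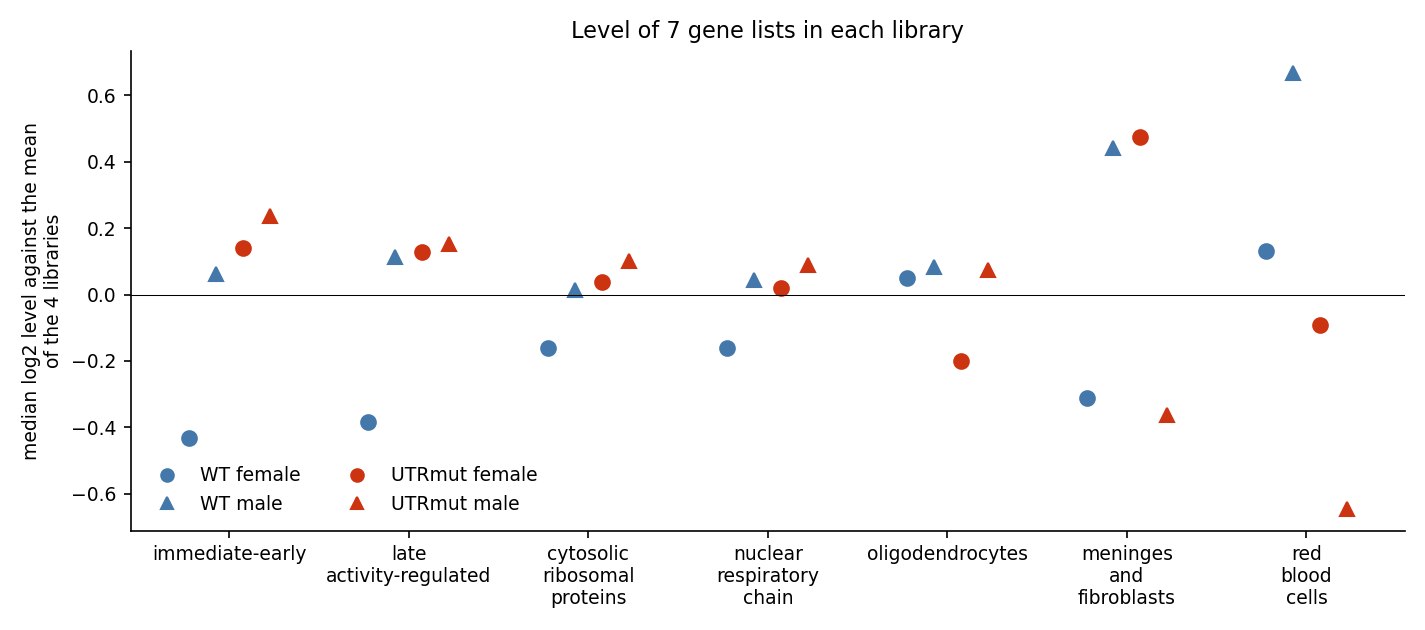
Median log2 level of 7 gene lists in each of the 4 libraries, relative to the mean of the 4 libraries. The WT female is lowest for immediate-early (-0.43), late activity-regulated (-0.38), ribosomal protein and respiratory chain genes (both -0.16), and red blood cell genes range from 0.67 in the WT male to -0.65 in the UTRmut male.

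Further genes of small p that did not pass had higher values in UTRmut. Sertad1, a coregulator of the cell cycle factor E2F, had 14.4 and 22.2 CPM in WT and 27.6 and 35.2 in UTRmut (log2 fold 0.79, SE 0.13; adjusted p = 0.192 by edgeR and Benjamini-Hochberg). Tiparp, an ADP-ribosyltransferase induced by the aryl hydrocarbon receptor, had 40.6 and 57.3 CPM in WT and 70.5 and 97.6 in UTRmut (0.78, SE 0.15; adjusted p = 0.541 by edgeR and Benjamini-Hochberg). In both genes the 2 groups did not overlap, which their naming required. The het libraries lay above both WT libraries, for Tiparp by little in the het male, at 59.5 CPM against 57.3 in the WT male.

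On the lower side 0 genes passed, and the named genes of small p included 2 receptors and a marker of dividing cells. Npsr1, the receptor of neuropeptide S, had 60 and 59 counts in WT against 17 and 25 in UTRmut, with 30 and 38 in het between them (log2 fold -1.52, SE 0.30; adjusted p = 0.505 by edgeR and Benjamini-Hochberg). Htr2c, a serotonin receptor on the X chromosome, had 181 and 224 counts in WT, 75 and 102 in UTRmut and 146 and 102 in het (log2 fold -1.21, SE 0.23; adjusted p = 0.529). Mki67, a protein of proliferating cells, had 19 and 40 counts in WT against 1 and 8 in UTRmut (log2 fold -2.70, SE 0.58; adjusted p = 0.678). For each of the 3, both UTRmut libraries were below both WT libraries, which the naming of these genes required. The same sign in females and males follows from that and is no further result. Of 42 monoamine, acetylcholine and peptide receptors tested, 19 were positive and 23 negative with a median of -0.01. Of the proliferation list, 4 of 15 were positive, and Top2a, another gene of dividing cells, had 0.579 and 1.64 CPM in WT and 0.280 and 0.435 in UTRmut.

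The other genes with lower values were of mixed function. Zfp949, a zinc finger gene, had 44.7 and 32.4 CPM in WT and 26.9 and 23.0 in UTRmut (log2 fold -0.62, SE 0.12). Rreb1, a transcription factor that responds to Ras signalling, had a log2 fold of -0.94 (SE 0.23), with -1.36 between the females and -0.48 between the males. C1ql2, a synaptic organiser of hippocampal mossy fibres that also marks carry-over of hippocampus, had 4.53 and 7.51 CPM in WT and 2.15 and 3.13 in UTRmut (-1.18, SE 0.30). The hippocampus list as a whole had 6 of 10 genes positive and a median of 0.04. Pxdn, a peroxidase that crosslinks basement membrane collagen, and Zfpm2, a cofactor of GATA factors, had log2 folds of -0.53 (SE 0.14) and -0.51 (SE 0.14). Tshz2, a zinc finger gene of deep-layer neurons, had 94.99 and 93.1 CPM in WT and 41.4 and 53.4 in UTRmut, while the het libraries, at 98.4 and 57.4, spanned both. It did not pass (log2 fold -0.98, SE 0.29), and of 15 alternatives it passed in 3: without the WT female, without the WT male, and in the 4 libraries without the block.

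**Figure D3:**
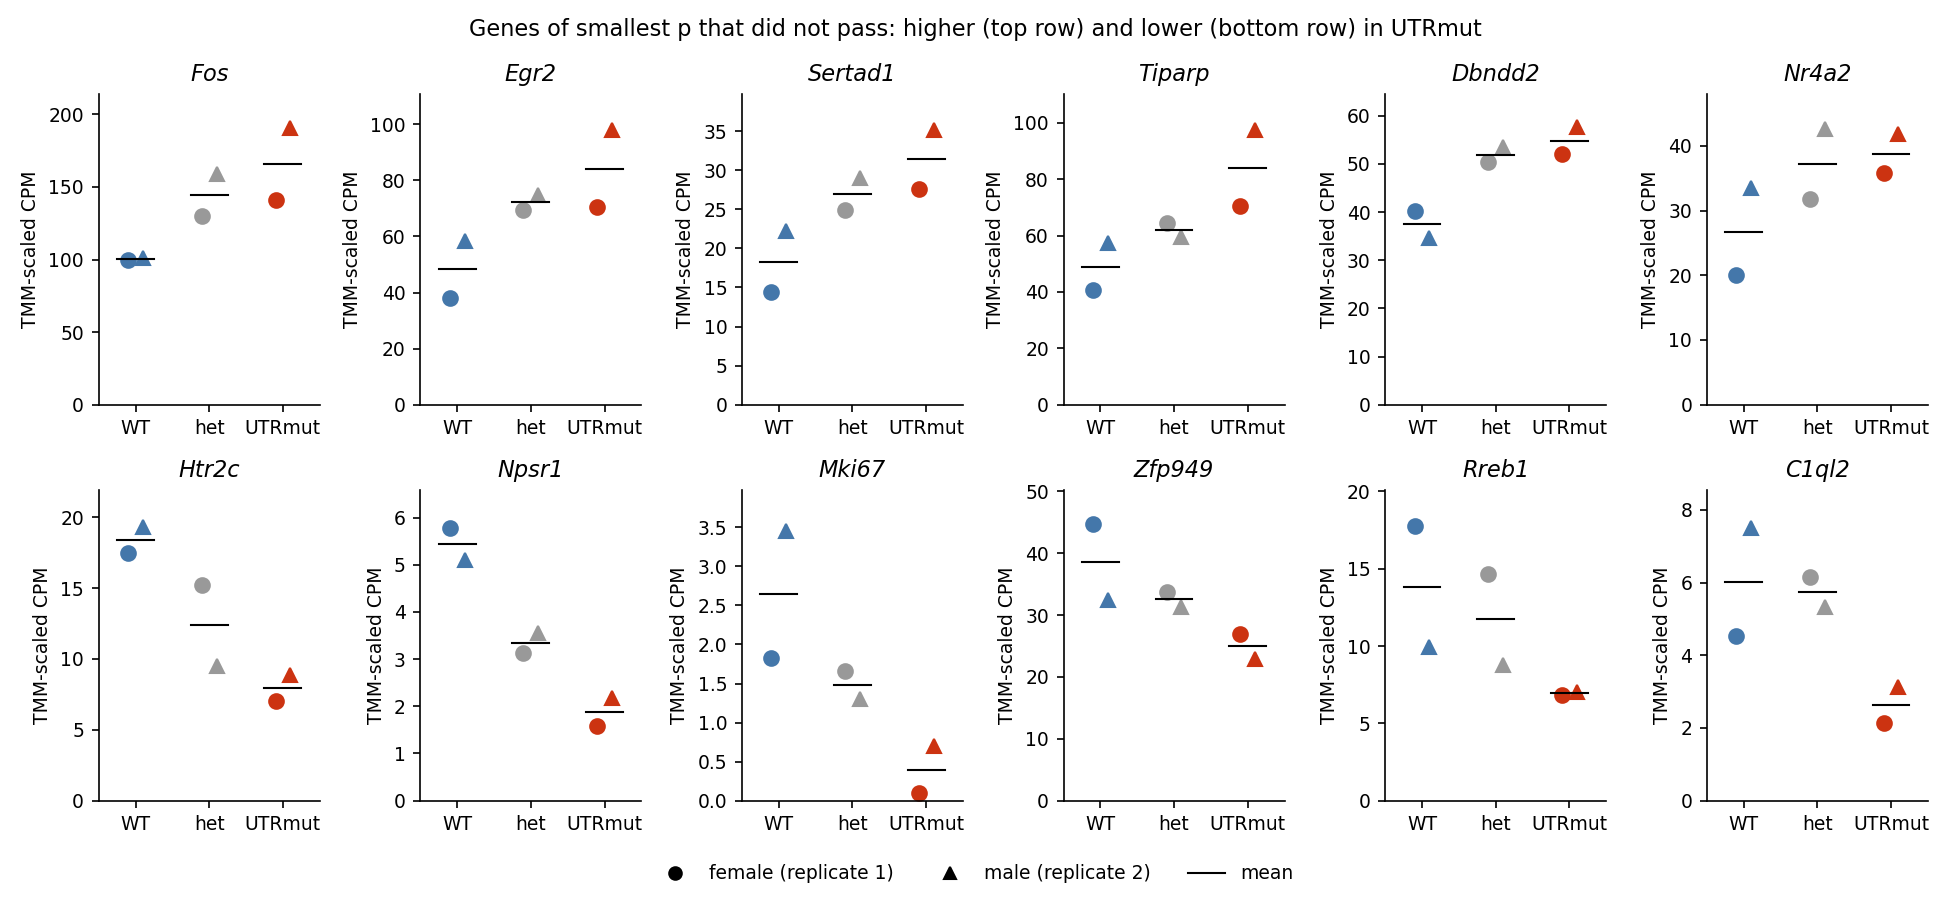
Level in each library of 12 genes of small p that did not pass, as TMM-scaled CPM on linear axes from 0, with higher genes in the top row and lower genes in the bottom row and a bar at the mean of each genotype. The WT and UTRmut libraries do not overlap in any panel, which the naming of these genes required.

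Red blood cell genes had negative folds in 5 of 6 tested, and 0 passed. Relative to the mean of the 4 libraries the list stood at 0.13 in the WT female, 0.67 in the WT male, -0.09 in the UTRmut female and -0.65 in the UTRmut male, so the males were the farthest apart. Hba-a1, an alpha globin, had 49.2 and 69.96 CPM in WT and 37.7 and 29.2 in UTRmut (log2 fold -0.82, SE 0.19), and Alas2, the first enzyme of haem synthesis in red cells, had 7.62 and 9.76 against 5.51 and 3.22 (-1.01, SE 0.28). Neither passed. The median of 6 tested genes was -0.89, with -0.18 between the females and -1.40 between the males, and 4 of the 6 had both UTRmut libraries below both WT libraries (14.6% of all genes). Without the WT female the median was -1.24 and 5 of the 6 were called lower (0.767% of all genes in that fit), and without the WT male it was -0.40 and 1 was (0.811%). Hba-a1 has a near-identical copy, Hba-a2, at 0 counts in these libraries, so counts of the pair are uncertain. In bulk tissue, fewer cells of a type and less RNA per cell cannot be told apart.

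Oligodendrocyte genes leaned to lower values by small amounts. Of 18 tested, 17 were negative with a median of -0.10, and 0 passed. Enpp6, which marks newly forming oligodendrocytes, had 15.4 and 13.99 CPM in WT, 10.1 and 9.31 in UTRmut and 14.3 and 16.8 in het (log2 fold -0.60, SE 0.17). Gjc3, a connexin of these cells, had 25.9 and 23.3 CPM in WT, 18.0 and 18.6 in UTRmut and 26.6 and 24.8 in het (-0.42, SE 0.13). The abundant myelin genes differed less: Mbp had 1367 in both WT libraries and 1061 and 1530 CPM in UTRmut, so its groups overlapped. The list stood at -0.20 in the UTRmut female and between 0.05 and 0.08 in the other 3 libraries. Of 11 precursor genes, 9 were negative with a median of -0.15, and 0 passed.

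Neuronal, astrocyte and microglia lists had medians from -0.08 to 0.10, against -0.01 over all genes. Upper-layer neurons had 10 of 16 genes positive (median 0.05), deep-layer neurons 8 of 17 (-0.08), interneurons and neuropeptides 18 of 26 (0.04), the glutamatergic synapse 19 of 44 (-0.02) and GABA-A receptor subunits 12 of 14 (0.08). Gad1, the main enzyme of GABA synthesis, had 292.9 and 304.4 CPM in WT and 348 and 346.2 in UTRmut (log2 fold 0.22, SE 0.08), which did not pass. Astrocyte genes had 12 of 15 positive with a median of 0.10 (0.19 between the females and -0.13 between the males). Among them, Slc1a3, a glutamate transporter, was at 0.18 (SE 0.07). Microglia and complement genes had 11 of 17 positive (0.04) and endothelial and mural cell genes 4 of 17 (-0.14). Choroid plexus genes had a median of -0.77 over 5 tested, which included Ttr and scarce genes such as Kcnj13, at 7 to 14 counts. Relative to the mean of the 4 libraries this list stood at -0.05 in the WT female and 0.46 in the WT male. It stood at -0.36 in the UTRmut female and 0.06 in the UTRmut male, so the genotypes overlapped. Genes of local translation, the process through which untranslated regions act in dendrites, had 14 of 30 positive and a median of -0.02, and 24 genes of the visual critical period had 15 positive and a median of 0.08. None of these lists held a gene that passed.

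Most genes of protein synthesis and respiration had small positive folds, and 0 of them passed. Of 76 cytosolic ribosomal protein genes, 74 were positive with a median of 0.14 (0.195 between the females and 0.083 between the males), and both UTRmut libraries were above both WT libraries for 43 of them (14% of all genes). Rps16 had 45.1 and 60.2 CPM in WT and 66.8 and 71.4 in UTRmut (log2 fold 0.40, SE 0.11). Of 76 nuclear-encoded respiratory chain genes, 74 were positive with a median of 0.11 (0.192 between the females and 0.037 between the males) and a range from -0.22 to 0.26. Here both UTRmut libraries were above both WT libraries for 18 and below for 1 (14% and 14.6% of all genes), fewer than among the ribosomal proteins. Atp5j, a subunit of ATP synthase on this list, had 63.7 and 71.7 CPM in WT and 77.8 and 84.2 in UTRmut (0.26, SE 0.09). The WT female was lowest in both lists (-0.16 each). Without the WT female, 70 of 76 ribosomal protein genes (median 0.10) and 53 of 76 respiratory chain genes (median 0.06) were positive. Without the WT male it was 75 of 76 in each list, with medians of 0.19 and 0.18. The sum over ribosomal proteins was 7884 and 8809 CPM in WT, 8964 and 9371 in UTRmut and 8295 and 9222 in het, so the het libraries spanned the gap.

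An annotation class moved with the WT female. Of 1183 tested transcripts of the GENCODE class TEC, regions of transcription whose status is unproven, 21% were positive, with a median log2 fold of -0.27, against 0.00 for protein-coding genes. The median was -0.46 between the females and -0.05 between the males. TEC transcripts took 0.751% of counts in the WT female, 0.477% in the WT male, and 0.521% and 0.452% in UTRmut. Sense intronic transcripts had 28.2% of 142 positive and a median of -0.26. The part of unspliced RNA in the levels of the WT female was not tested.

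The females and the males gave different profiles. UTRmut minus WT had the same sign in both sexes for 7164 of 16119 genes (44.4%), and the Pearson correlation of the 2 differences across genes was -0.14. Among 9692 genes of at least 10 CPM it was -0.21. These values describe 1 pair of libraries per sex and are across genes, which are not independent. A difference of at least 2-fold in both sexes was found for 7 genes higher and 17 lower in UTRmut, and at 10 CPM or more for 1 higher, Catspere2, and 1 lower, Htr2c. Pttg1, which encodes securin and was picked out for its values, had 1 count in the WT female and 2 in the WT male, 1 in the UTRmut female and 52 in the UTRmut male, with 2 and 44 in het, and was therefore high in the 2 males with a mutant allele alone (adjusted p = 0.353 by edgeR and Benjamini-Hochberg).

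**Figure D4:**
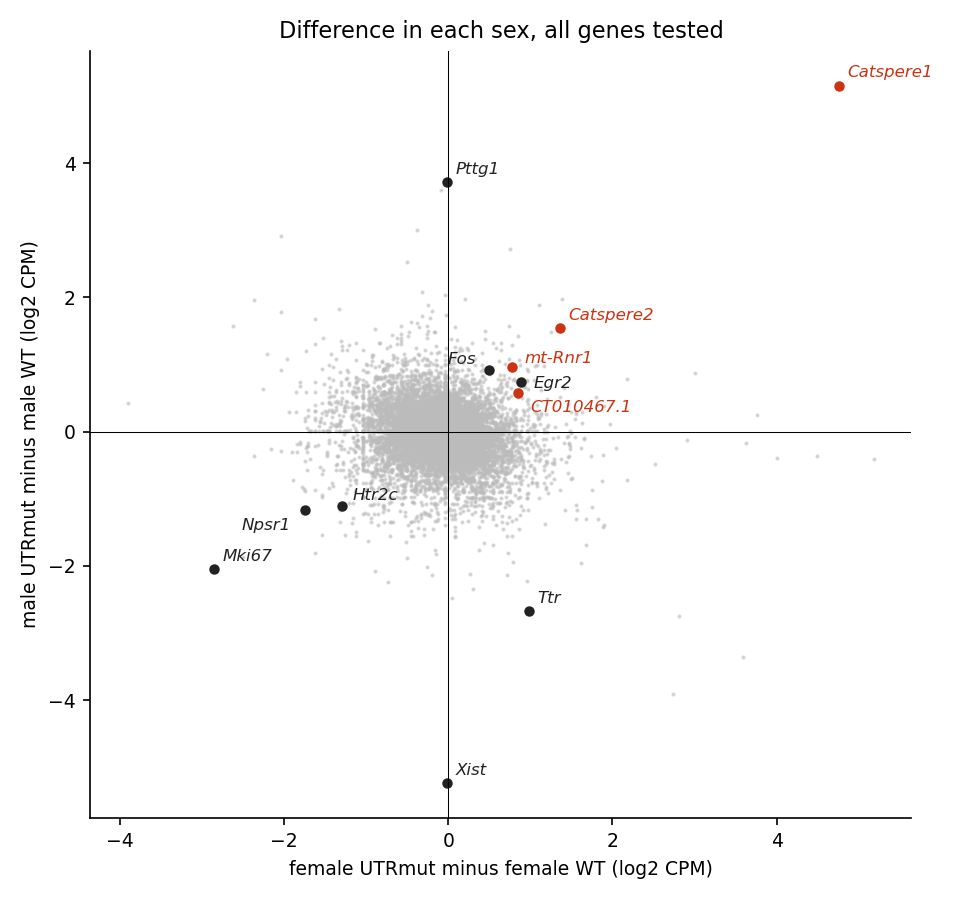
Difference of UTRmut minus WT in log2 CPM between the females (horizontal) and between the males (vertical), 1 point for each of 16119 genes tested, with genes that passed in red and 8 further genes in black. The 2 Catspere genes lie at the upper right, Mki67, Npsr1 and Htr2c at the lower left, and Xist and Pttg1 differ between the males alone.

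Gene lists differed between the sexes as well. Markers of meninges and fibroblasts had a median of 0.74 between the females and -0.73 between the males. Both UTRmut libraries were above both WT libraries for 0 of the 14 tested genes and below for 0 (14% and 14.6% of all genes). Ptgds, a prostaglandin synthase of the meninges, had 308.7 CPM in the WT female, 344.3 in the WT male, 525.3 in the UTRmut female and 268.6 in the UTRmut male. Sterol synthesis genes had 0.26 and -0.37. Their part in other differences between these libraries was not tested.

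**Figure D5:**
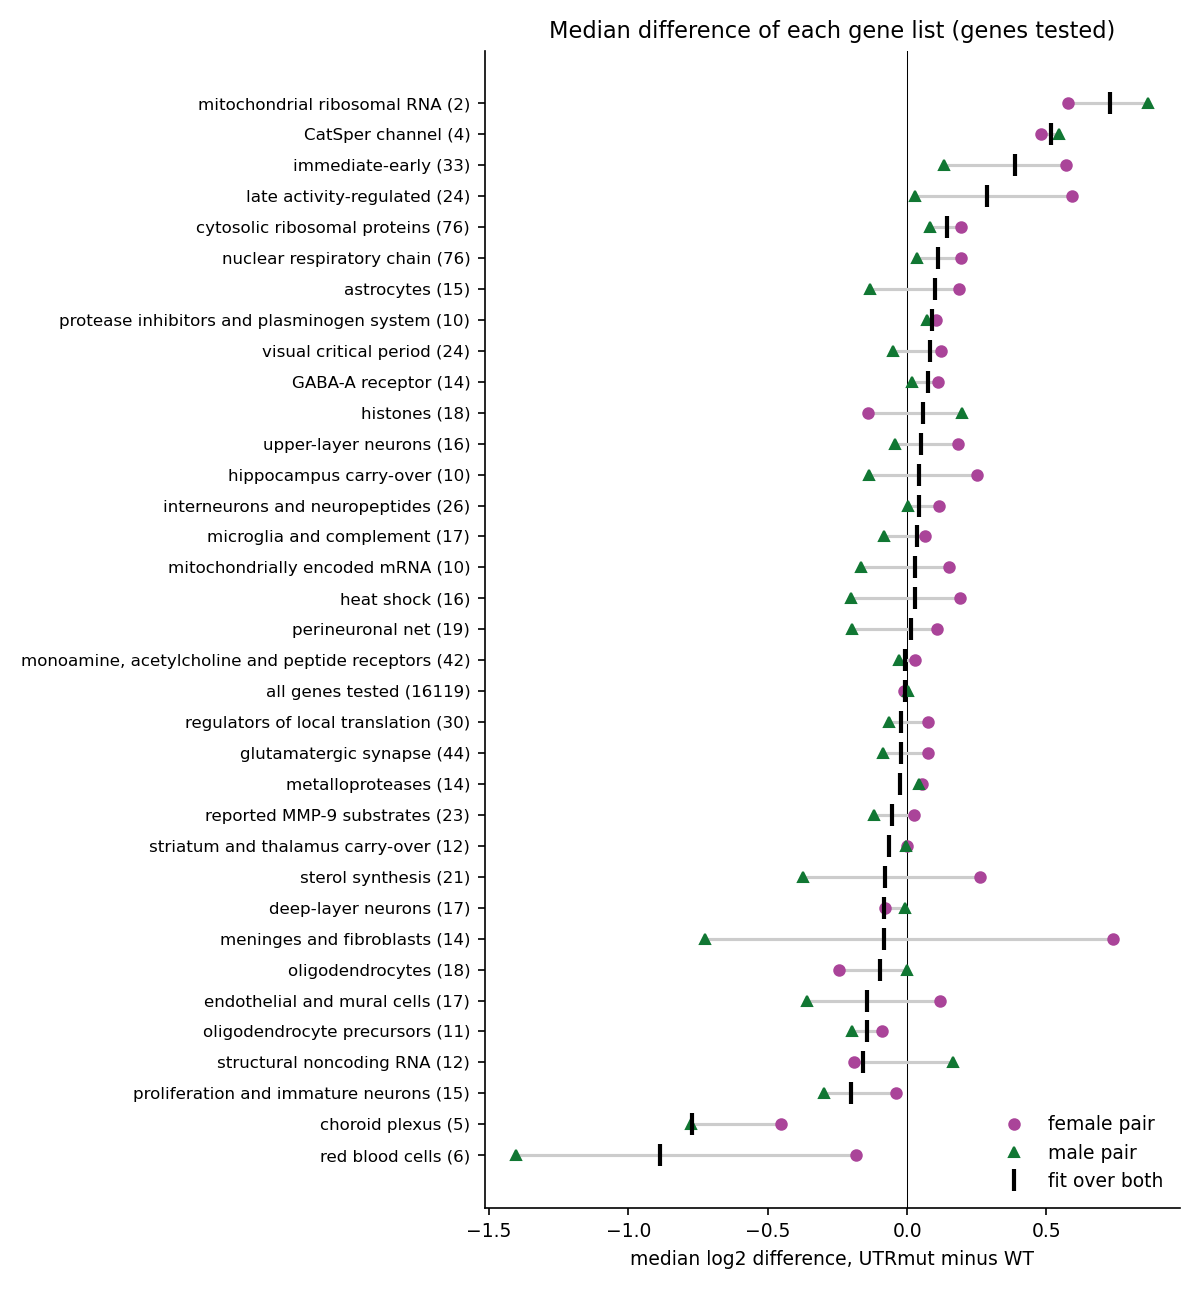
Median log2 difference of UTRmut minus WT for each gene list, with the number of genes tested in brackets, between the females (circles), between the males (triangles) and from the fit over both (bars). Immediate-early genes lie at 0.57 and 0.13, and meningeal markers at 0.74 and -0.73.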

How the data were processed

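Total RNA of the visual cortex was sequenced from 6 libraries. The authors deposited raw read counts per Ensembl gene in 1 table with no normalisation. The tools HTSeq 0.6.0, GATK 4.2.3.0, HISAT2 and Trimmomatic 0.39 and the build GRCm38 are named, per the submitters' processing notes, with no role given. Per the labels' protocols libraries came from a stranded total RNA kit. The strand setting of the counting is not given in the sources used here, so antisense and overlapping genes are uncertain.

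The table has 55487 genes, of which 26168 had 0 counts in every library. GENCODE (GRCm38) gave symbols and positions, and 260 identifiers without a symbol held 0.0162% of counts. Genes were kept by filterByExpr (minimum count 10, total 15), scaled by TMM and tested in R 4.3.3 with edgeR 4.0.16 (glmQLFit and glmQLFTest, robust), with replicate and genotype as terms over all 6 libraries (2 residual degrees of freedom). Benjamini-Hochberg adjustment ran over 16119 genes, with a threshold of 0.05. Each SE is |log2 fold| over the square root of F. CPM are TMM-scaled, differences per sex are on log2 CPM with a prior count of 2, and floors of 3 counts (0.259 to 0.312 CPM) cover counting error only. Timp1 was read from a fit without the filter. DESeq2 1.42.0 was an alternative.

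The rule named Mmp9, Timp1 to Timp4, up to 15 called genes a direction, filled up to 10 with protein-coding genes of smallest p whose libraries do not overlap, and up to 4 genes of smallest p per list. The comparison, the 35 lists and the rule were chosen with earlier results of these data known. Lists are described by counts and medians without a test. Other list members, Pigt, Pttg1, Gm8010, the neighbours on chromosome 1 and the 1 Mb window were chosen after values were seen. The fit was also run on simulated data with known folds, with the spread of each gene set to that estimated from these libraries. There, calls of unchanged genes exceeded the nominal share, which limits how firm the calls given here are. Whether libraries of the same number deviate together differed between genotypes: the correlation of deviations over 15567 autosomal genes was -0.03 for WT and UTRmut, 0.22 for WT and het and 0.06 for het and UTRmut, and the labels name no shared animal, litter or day. The block therefore stands for sex and was not taken as a pairing.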

Additional observations from a re-analysis of the deposited data

Results flagged for a closer look

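Catspere1 and Catspere2 were also high in the het libraries, which the contrast leaves out. Mean levels there were 20.93 CPM for Catspere2 and 6.10 CPM for Catspere1, above both WT libraries.

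Several groups moved in opposite directions in the 2 sexes, with medians of at least 0.1 on the log2 scale on each side, a limit set after the values were seen. The female minus male difference was 1.46 for meninges and fibroblasts, 0.64 for sterol synthesis, 0.48 for endothelial and mural cells, 0.39 for heat shock, 0.39 for hippocampus carry-over, 0.32 for astrocytes, 0.32 for mitochondrially encoded mRNA and 0.31 for the perineuronal net. It was -0.36 for structural noncoding RNA and -0.34 for histones. Ttr, with a limit of 0.5 on each side, had a female minus male difference of 3.65. Each sex had 1 library per genotype, so none of these differences was tested.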

How the results depend on the processing

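The number of genes that passed depended on the fit. It was 1 higher and 0 lower without the replicate block (Catspere1), 0 and 0 in 4 libraries with the replicate block, 2 and 1 in 4 libraries with no replicate block, 18 and 12 with no filter on low counts, and 2 and 0 with mitochondrial and ribosomal RNA genes left out. DESeq2 gave 6 and 0. Leaving out 1 library at a time gave 2 to 253 higher and 0 to 136 lower: 56 and 128 without the WT female, 253 and 136 without the WT male, 11 and 5 without the UTRmut female, 8 and 0 without the UTRmut male, 3 and 1 without the het female and 2 and 0 without the het male. The cause of these changes was not tested. With a genotype left with 1 library, that library is assumed to vary like the others. Catspere1 and mt-Rnr1 passed in each of the 6, Catspere2 in 5 and CT010467.1 in 4. No called gene changed direction, and the median of all genes moved by less than 0.1. Replicate numbers were not taken to pair the libraries, so calls lost or gained with the block do not describe a weaker or stronger effect. They do limit how firm the calls are. Without the block, Catspere2, mt-Rnr1 and CT010467.1 missed the threshold, at adjusted p = 0.107, 0.388 and 0.9988 by edgeR and Benjamini-Hochberg. The depth of these libraries limits what can be said of scarce transcripts such as Mmp9 and Timp1.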
